A study of Mus musculus with 16 samples.

Results

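The retinoid visual cycle is described here through 10 mouse genes that encode its enzymes and carriers, Rdh8, Rdh12, Rbp3, Rlbp1, Rdh5, Rdh10, Rdh11, Retsat, Lrat and Rpe65. They were chosen by name, and all 10 were among the 32166 genes of the deposited gene table. Polyadenylated RNA was sequenced from GFP-positive cells sorted out of mouse retinal organoids, three-dimensional cultures that form retina from stem cells, in 16 libraries. Every group carried the same Nrlp-GFP transgene, in which the promoter of the rod gene Nrl drives green fluorescent protein, so that the sort selects for activity of that promoter. The embryonic stem cells (ESC) were derived from 3.5-day blastocysts, and the induced pluripotent stem cells (iPSC) from E14.5 embryonic fibroblasts given Dox-inducible lentiviral Oct3/4, Sox2, Klf4 and c-Myc. ESC-derived cells gave 3 libraries at day 18 of differentiation, 3 at day 21 and 1 each at days 25, 28 and 35. iPSC-derived cells gave 2 libraries at day 18, 1 at day 21, 2 at day 25 and 1 each at days 28 and 35. All cultures were kept at 5% oxygen up to day 10 and at 20% after it. All received 500 nM retinoic acid, itself a retinoid, and the labels put its last day at day 26, so that day 28 and day 35 cells were collected after it and day and retinoic acid cannot be told apart between the earlier and the later libraries. The labels do not say whether replicates were separate cultures, so p-values reflect only how far these samples lie apart, a spread that may be technical.

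In the vertebrate retina, light isomerises the 11-cis retinal bound to an opsin to the all-trans form, and the visual cycle restores it. Photoreceptors reduce all-trans retinal to retinol, IRBP carries retinoids across the space between cells, and the pigment epithelium esterifies, isomerises and oxidises them back to 11-cis retinal. Müller glia hold a carrier of 11-cis retinoids and take part in a second route that serves cones. RDH8 reduces all-trans retinal in the photoreceptor outer segment, RDH12 reduces retinal and other aldehydes in the inner segment, and IRBP, the product of Rbp3, is secreted by photoreceptors into the interphotoreceptor matrix. These 3 genes are called the photoreceptor side below. On the pigment epithelium or glial side, LRAT makes retinyl esters, RPE65 is the isomerase, RDH5 and RDH10 are retinol dehydrogenases, and CRALBP, the product of Rlbp1, binds 11-cis retinoids in pigment epithelium and Müller glia. RDH11, a broadly expressed retinal reductase, and RETSAT, a retinol saturase, were set apart from both sides.

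The libraries held between 3863550 and 21880055 estimated counts, so that 1 count was worth 0.0370 to 0.213 CPM, counts scaled to a common library size. In ESC day 18 replicate 1 and iPSC day 18 replicate 1, Nrl stood at 17.7 and 15.99 CPM, where the remaining 3 libraries of that day had 136 to 881 CPM. The proliferation gene Mki67 reached 406 and 462 CPM in them, the highest levels of the series. These libraries, called the pair with low Nrl below, were closer to each other (r = 0.992 across genes) than any of the other pairs among 120. The mean of Ddx3y, Eif2s3y and Uty, which are Y-linked, was 0.927 CPM in ESC day 18 replicate 1 and 25.6 CPM or more in the remaining ESC libraries. It was 42.2 CPM in iPSC day 18 replicate 2, 11.5 CPM in iPSC day 25 replicate 1 and at most 1.48 CPM in the remaining iPSC libraries. The day 18 libraries named here are called the pair with discordant Y-linked genes, and results that rest on day 18 are given without these libraries where that changes them. None of 13 rod markers was at 0 in all libraries, and their summed level ran from 58.0 CPM in iPSC day 18 replicate 1 to 17687 CPM in iPSC day 35. In bulk samples, fewer cells of a type and less RNA per cell cannot be told apart.

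On the photoreceptor side, Rdh8 went from low levels at day 18 to its highest at days 28 and 35. Rdh12 also started low and was highest in the iPSC libraries of those late days, and Rbp3 was already abundant at day 18. Rdh8 was listed at 0 in ESC day 18 replicates 1 and 3 and in iPSC day 18 replicate 1, at 0.162 CPM in ESC day 18 replicate 2 and at 4.79 CPM in iPSC day 18 replicate 2. A count of 0 allows up to 0.186, 0.377 and 0.122 CPM in those 3 libraries, counting error only. At day 21 Rdh8 was at 2.51, 1.81 and 21.1 CPM in ESC replicates 1 to 3 and at 3.69 CPM in the iPSC library. It stood at 39.9 CPM in the ESC library of day 25, with 13.1 and 52.9 CPM in the iPSC libraries of that day. The values of day 28 were 57.6 CPM (ESC) and 96.5 CPM (iPSC), those of day 35 were 69.8 CPM and 95.1 CPM. Every library of days 25, 28 and 35 was above every library of day 18, and days 28 and 35 were also above days 21 and 25, while days 28 and 35 overlapped each other. Days 28 and 35 above days 21 and 25 without overlap was found in 1.09% of all genes. No overlap with day 18, in the higher direction, was found in 8.53% of all 15202 genes tested at day 25, in 11.9% at day 28 and in 10.9% at day 35.

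Rdh12, whose human counterpart is a gene of early retinal degeneration, stood at 1.34, 4.78 and 4.18 CPM in ESC day 18 replicates 1 to 3 and at 2.26 and 30.6 CPM in the iPSC replicates of that day. At day 21 it was at 13.6, 11.3 and 76.4 CPM in ESC and at 10.3 CPM in iPSC. At day 25 the ESC value was 68.1 CPM and the iPSC values were 37.4 and 122 CPM. Days 25, 28 and 35 were above all of day 18, for which the shares of all genes are given with Rdh8. Day 35 was also above all of day 21, for which no share of all genes is given. Days 21 and 28 overlapped, as did the libraries of days 25, 28 and 35. The late iPSC libraries were the highest of the series, with 237 CPM at day 28 and 248 CPM at day 35, against 62.8 and 92.9 CPM in the ESC libraries of those days. iPSC day 18 replicate 2 was the highest of its day for Rdh8, Rdh12 and Rbp3, and Nrl there was at 881 CPM.

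Rbp3 was at 226, 1053 and 1546 CPM in ESC day 18 replicates 1 to 3 and at 207 and 3876 CPM in the iPSC replicates. Its values at day 21 were 2645, 3061 and 9008 CPM in ESC and 3349 CPM in iPSC. At day 25 it was at 7814 CPM in ESC and at 4395 and 7623 CPM in iPSC. At day 28 it was at 4963 and 8312 CPM, and at day 35 at 3156 CPM in ESC and 10367 CPM in iPSC. The pair with low Nrl was the lowest for this gene. Days 25 and 28 lay above day 18, and day 35 did not, because the ESC day 35 library was below iPSC day 18 replicate 2. Nrl in that ESC day 35 library was at 556 CPM, against 1860 CPM in iPSC day 35.

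**Figure D1:**
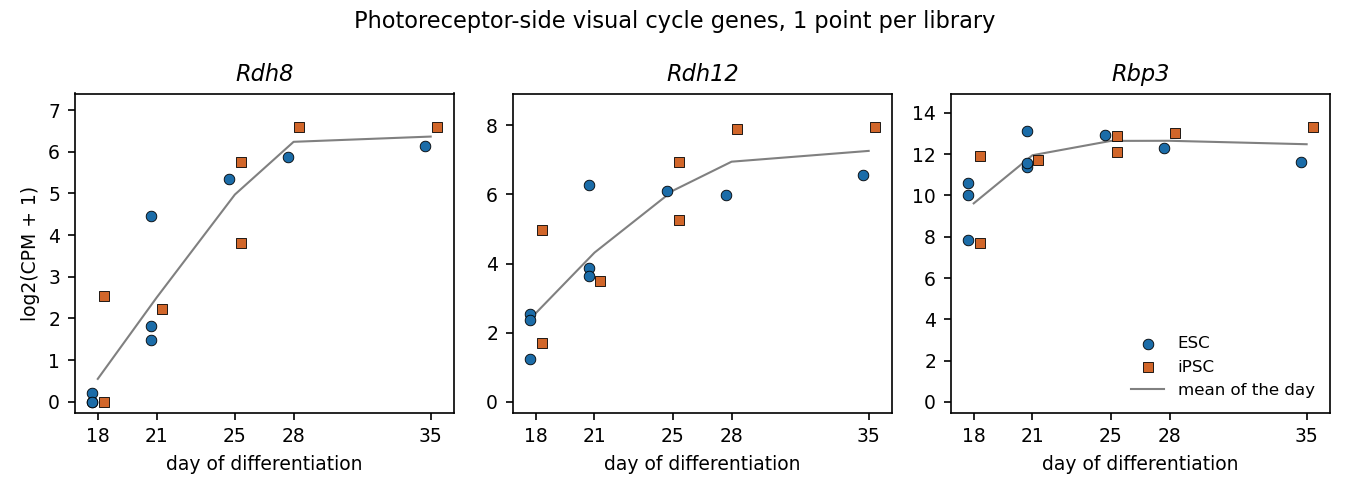
Level of Rdh8, Rdh12 and Rbp3 on the log2(CPM + 1) scale (vertical axis) by day of differentiation (horizontal axis), 1 point per library, circles for ESC and squares for iPSC, with a line through the mean of each day. Rdh8 starts at or near 0 and Rbp3 already lies between 207 and 3876 CPM at day 18, and the late iPSC squares sit above the late ESC circles for all 3 genes.

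The promoters of these 3 genes are shown because the levels of these genes moved together over the libraries, and the rod factor NRL and the photoreceptor homeodomain factor CRX are known regulators of rod genes. RefSeq held a start for 9 of the 10 genes in its GRCm38.p6 annotation. Each sequence is the 250 bases before that start, 5′ to 3′ on the plus strand, which is the gene's strand, with matches to TAATCC (the core bound by CRX and OTX2) or TGCTGA (part of the NRL response element) on either strand in capitals. The windows are chr14:33953753-33954002 for Rbp3, chr12:79208663-79208912 for Rdh12 and chr9:20818244-20818493 for Rdh8.

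Rbp3: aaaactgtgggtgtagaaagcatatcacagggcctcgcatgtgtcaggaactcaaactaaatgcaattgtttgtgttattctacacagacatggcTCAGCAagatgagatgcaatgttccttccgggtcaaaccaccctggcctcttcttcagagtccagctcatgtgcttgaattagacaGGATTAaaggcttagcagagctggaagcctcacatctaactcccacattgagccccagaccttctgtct
Rdh12: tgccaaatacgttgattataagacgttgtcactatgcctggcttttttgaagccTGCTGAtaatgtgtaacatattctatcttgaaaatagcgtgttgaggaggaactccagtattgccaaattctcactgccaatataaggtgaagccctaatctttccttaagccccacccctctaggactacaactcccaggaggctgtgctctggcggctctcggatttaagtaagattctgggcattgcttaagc
Rdh8: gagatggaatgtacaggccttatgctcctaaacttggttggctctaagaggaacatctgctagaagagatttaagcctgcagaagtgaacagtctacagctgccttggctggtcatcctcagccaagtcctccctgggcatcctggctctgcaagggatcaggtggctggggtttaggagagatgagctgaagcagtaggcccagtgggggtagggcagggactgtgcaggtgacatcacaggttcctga

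The Rbp3 window holds TAATCC on the minus strand, read as GGATTA at position -69 from the start, and TGCTGA on the minus strand, read as TCAGCA at position -155. The Rdh12 window holds TGCTGA at position -196 and no TAATCC, and the Rdh8 window holds neither. Among 32851 promoters of the same length, 6.252% held TAATCC, 16.08% held TGCTGA and 0.9619% held both. The motifs do not overlap each other in these windows. Among the other members, Rlbp1 had TGCTGA at position -250 and Rpe65 had GGATTA at position -42, and a match is a description of letters, not of binding.

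Rdh8 lies on chromosome 9 at 20818503 to 20826117 (GRCm38, plus strand) and has 1 annotated transcript of 6 exons. Rbp3 lies on chromosome 14 at 33954003 to 33964216 (plus strand) with 4 exons in its 1 transcript. Rdh12 lies on chromosome 12 at 79208914 to 79222665 (plus strand), 16620 bp from its relative Rdh11, which lies on the minus strand of the same chromosome at 79174337 to 79192293. Among its 4 annotated transcripts, the main coding one held 77.8% of the gene's TPM, a length-scaled abundance, summed over the libraries, and a transcript annotated as a retained intron held 18.2%. The pair with low Nrl stood apart. The retained-intron form held 100% of the gene's TPM in ESC day 18 replicate 1, where the main coding form was listed at 0, and 65.3% in iPSC day 18 replicate 1, where the main coding form was at 0.532 TPM. In the other 14 libraries the retained-intron form held between 8.54% and 33.3%, so the gene's few CPM at day 18 in that pair were mostly not assigned to the main coding form. Those shares rested on 32.9 and 66.2 estimated counts for the whole gene.

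**Figure D2:**
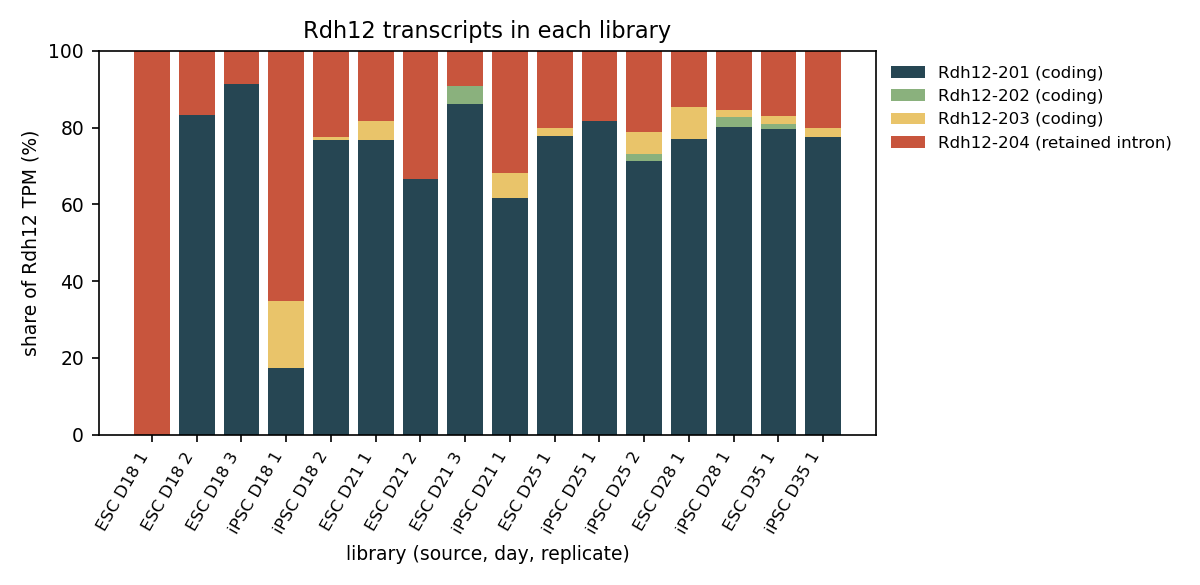
Share of Rdh12 TPM (vertical axis, %) held by each annotated transcript in each library (horizontal axis, ordered by day) in a colour of its own. The retained-intron form holds 100% in ESC day 18 replicate 1 and 65.3% in iPSC day 18 replicate 1, and 8.54% to 33.3% elsewhere.

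Setting the genes against each other within a library takes out the scaling of that library. This description, chosen after the values were seen, is given with no test. Rdh8 per 1000 CPM of Rbp3 had a median of 0 at day 18, 1.02 at day 21, 5.10 at day 25, 11.6 at day 28 and 15.6 at day 35. The ranges were 0 to 1.24 at day 18, 0.591 to 2.34 at day 21, 2.98 to 6.94 at day 25, 11.6 at day 28 in both libraries and 9.17 to 22.1 at day 35. The ranges of days 21 and 25 did not overlap in this ratio, whereas Rdh8 CPM itself overlapped between those days. In both late ESC libraries, whose Rbp3 was below that of the late iPSC libraries, the ratio was 11.6 and 22.1, against 11.6 and 9.17 in iPSC. Rdh12 per 1000 CPM of Rbp3 was between 2.70 and 10.9 at day 18, 3.07 and 8.48 at day 21, 8.52 and 16.02 at day 25, 12.6 and 28.6 at day 28, and 24.0 and 29.4 at day 35. Rdh12 per CPM of Rdh11 had a median of 0.0723 at day 18 and 0.141 at day 21, then 0.626, 1.39 and 1.70 at days 25, 28 and 35. This ratio of CPM shows how the pair of neighbours shifted between libraries, not which of them was the more abundant.

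On the pigment epithelium or glial side, Rpe65 and Lrat were at or near the limit of detection at the late days, Rdh5 stayed low, Rdh10 was at moderate levels throughout, and Rlbp1 was high in 1 library. Rpe65, on chromosome 3 at 159599175 to 159625321 (plus strand), was listed at 0 in 15 of 16 libraries. In ESC day 35 it was at 0.0454 CPM, which is 1 estimated count. A count of 0 allows up to 0.111 to 0.639 CPM across the libraries. Rpe65 did not pass the filter of 1 CPM in at least 2 libraries and is the 1 member without a test. Of 10 pigment epithelium markers that are no visual cycle genes, none was at 0 in every library. Best1 lay between 0 and 0.774 CPM, while Dct reached 114 CPM in ESC day 21 replicate 3, and Pmel, Tyrp1 and Tyr reached 34.2, 24.2 and 17.2 CPM in ESC day 35.

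Lrat, on chromosome 3 at 82892579 to 82903973 (minus strand), was at 3.95, 0.285 and 3.53 CPM in ESC day 18 replicates 1 to 3 and at 4.21 and 1.95 CPM in the iPSC replicates of that day. At day 21 it was at 9.46, 1.48 and 0.104 CPM in ESC and at 0.727 CPM in iPSC. Its single high value, in ESC day 21 replicate 1, rested on 102 estimated counts. At day 25 it was at 0.239 CPM in ESC and at 3.13 and 0.784 CPM in iPSC. The later levels were 0.309 and 0.642 CPM in ESC and 0 and 0.314 CPM in iPSC for days 28 and 35, on at most 12 estimated counts. Days 28 and 35 overlapped day 18, because ESC day 18 replicate 2 was as low as the late libraries. The gene overlaps the annotated Rbm46os, and reads of overlapping genes could be split by the counting.

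Rdh5, which makes 11-cis retinal from 11-cis retinol in pigment epithelium, lay between 3.92 and 22.4 CPM, with a median of 6.01 CPM. Its highest value was in ESC day 18 replicate 2, followed by 11.8 CPM in ESC day 35, and every pair of days overlapped. Only 16.7% of its TPM came from its first listed coding transcript, and 37.8% came from a retained-intron form. The locus, on chromosome 10 at 128913593 to 128922888 (minus strand), overlaps Bloc1s1, a gene of lysosome-related organelle biogenesis, so the level of Rdh5 is uncertain.

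Rdh10, which also starts retinoic acid synthesis from retinol in the embryo, lies on chromosome 1 at 16105774 to 16133734 (plus strand). It was at 29.6, 19.2 and 20.6 CPM in ESC day 18 replicates 1 to 3 and at 37.3 and 44.7 CPM in the iPSC replicates. At day 21 it was at 34.2, 43.6 and 26.8 CPM in ESC and at 61.4 CPM in iPSC. At day 25 it was at 55.6 CPM in ESC and at 47.9 and 35.6 CPM in iPSC. The day 28 libraries were both at 48.7 CPM, and the day 35 libraries, at 68.6 CPM in ESC and 73.6 CPM in iPSC, were above every other library of the series. Days 28 and 35 thus lay above all of day 18, as 11.9% of all genes did at day 28 and 10.9% at day 35. The share of all genes with day 35 above every other library is not given here.

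Rlbp1, on chromosome 7 at 79374870 to 79387048 (minus strand), lay between 5.14 and 7.13 CPM in the 5 libraries of day 18. It was between 2.79 and 5.48 CPM at day 21 and between 5.55 and 6.39 CPM at day 25. At day 28 it was at 39.5 CPM in ESC and 15.0 CPM in iPSC, above every library of days 18, 21 and 25. Day 28 lay above day 18 alone, without overlap, in 11.9% of all genes. The share above all of days 18, 21 and 25 is not given here. At day 35 the sources parted, with 124 CPM in ESC and 4.75 CPM in iPSC, the latter below all day 18 libraries. Both late ESC libraries were the highest of the series, and ESC day 35 was 3.14 times the next.

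Some markers of other cells were, like Rlbp1, highest in ESC day 35. Of 11 Müller glia markers that are no visual cycle genes, 9 were highest in ESC day 35, among them the water channel Aqp4 at 222 CPM against 5.67 CPM in its iPSC counterpart, and the glutamate transporter Slc1a3 at 241 against 8.11 CPM. The list summed to 1631 CPM in ESC day 35 and to 259 CPM in the iPSC library of that day, with 595 to 1127 CPM at day 18, 548 to 840 CPM at day 21 and 317 to 580 CPM at day 25. At day 28 Aqp4, like Rlbp1, was above every library of days 18 to 25, of which the highest was 2.26 CPM, but its order by source was the reverse, with 5.54 CPM in ESC and 29.2 CPM in iPSC. Slc1a3 (33.9 and 27.4 CPM), Glul (168 and 71.2) and Gpr37 (46.03 and 11.6) were higher in ESC at day 28, as Rlbp1 was. So were Sox9 (29.1 and 12.1 CPM), Dkk3 (308 and 20.8 CPM) and the list sum (806 and 474 CPM). Apoe (136 and 206 CPM), Clu (59.3 and 70.5 CPM) and Kcnj10 (1.79 and 4.15 CPM) were higher in iPSC, like Aqp4. The same held for Car14 (17.2 and 21.5 CPM) and Abca8a (0.113 and 0.309 CPM). Dkk3 was highest in the pair with low Nrl (773 and 793 CPM). The list sums of day 28 were not above those of day 18. Of 10 pigment epithelium markers, 6 were highest in ESC day 35, where their sum was 127 CPM against 19.5 CPM in iPSC day 35, but their sums at day 28 (28.8 and 12.6 CPM) were not above those of day 18 (19.9 to 112 CPM). No marker of these lists was at 0 in all libraries. Of 6 bipolar cell markers, 5 were also highest in ESC day 35, with a sum of 347 CPM against 86.4 CPM in iPSC day 35. The part of these cells in the level of Rlbp1 was not tested. ESC day 35 also had the most genes at 1 CPM or more (14511) and the lowest share of genes at 0 (40.0%). The share of all genes that were highest in that library is not given here, so these marker counts have no background beside them.

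**Figure D3:**
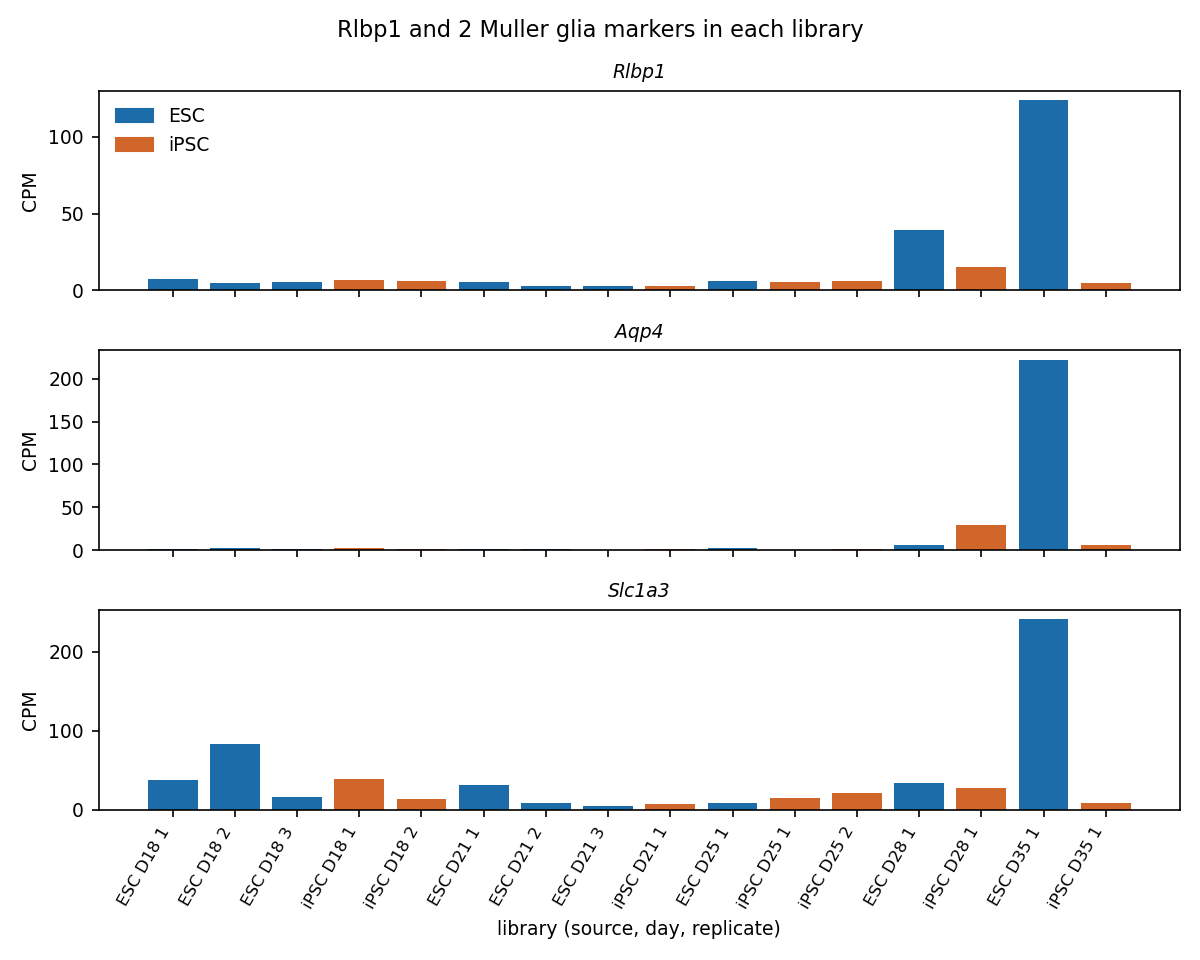
CPM (vertical axes, starting at 0) of Rlbp1 and of the Müller glia markers Aqp4 and Slc1a3 in each library (horizontal axis, ordered by day), blue for ESC and orange for iPSC. All 3 are highest in ESC day 35, and at day 28 Rlbp1 and Slc1a3 are higher in ESC while Aqp4 is higher in iPSC.

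Of the members on neither side, Rdh11 was at 50.5, 38.9 and 57.8 CPM in ESC day 18 replicates 1 to 3 and at 55.3 and 86.9 CPM in the iPSC replicates. It was between 79.1 and 157 CPM at day 21, between 80.1 and 109 CPM at day 25, between 63.8 and 132 CPM at day 28 and between 71.7 and 118 CPM at day 35. At every later day at least 1 library lay within the day 18 range, which iPSC day 18 replicate 2 set at its upper end. Retsat, on chromosome 6 at 72598475 to 72608425 (plus strand), varied least of the members, from 6.11 to 9.99 CPM with a median of 8.23 CPM. It overlaps the gene model Gm45053.

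**Figure D4:**
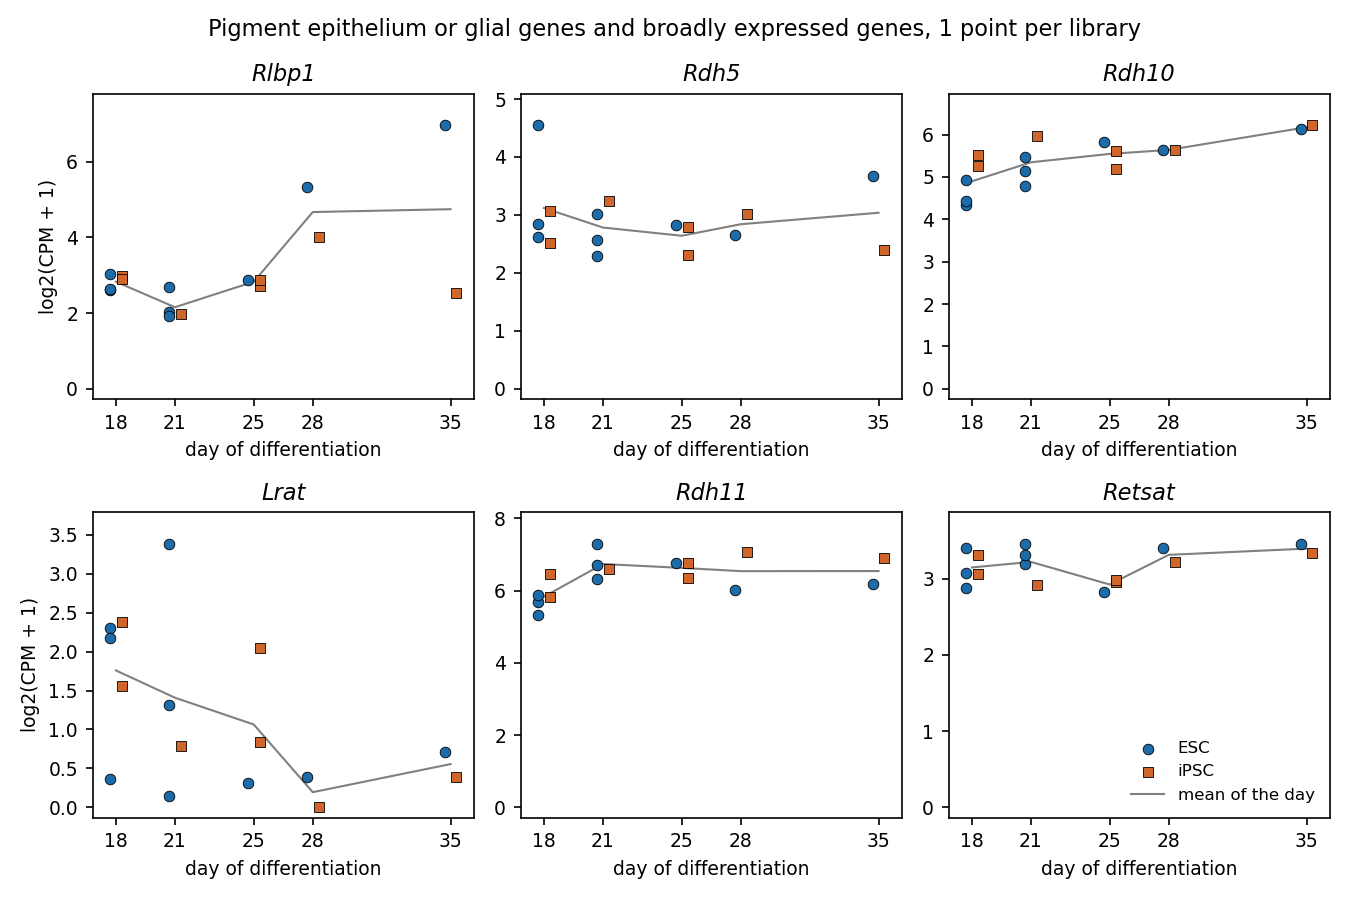
Level of Rlbp1, Rdh5, Rdh10, Lrat, Rdh11 and Retsat on the log2(CPM + 1) scale (vertical axes, whose ranges differ) by day of differentiation (horizontal axis), 1 point per library, circles for ESC and squares for iPSC, with a line through the mean of each day. The Rlbp1 panel shows the sources apart at day 35 (124 and 4.75 CPM), and both Rdh10 points of day 35 lie above all others.

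Levels can be compared between genes only per length, here as CPM per kb of the longest coding transcript. On that scale the medians over the 16 libraries were 682 for Rbp3, 25.6 for Rdh11, 20.3 for Rdh12, 12.3 for Rdh10, 6.36 for Rdh8, 4.77 for Rdh5, 2.79 for Rlbp1, 2.72 for Retsat, 0.141 for Lrat and 0 for Rpe65. The ranges of Rdh11 (11.9 to 48.0) and Rdh12 (0.801 to 148) overlapped, as did those of Rlbp1 (1.30 to 57.8), Rdh5 (3.12 to 17.8) and Retsat (2.02 to 3.301). The lowest Rbp3 level, 39.1, was above every Rdh10, Rdh5, Retsat, Lrat and Rpe65 level. A level per kb is uncertain where forms of another length hold much of a gene's TPM. For Rdh5, the 1258 bp transcript used here held 16.7% and a retained-intron form of 580 bp held 37.8%.

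The days were compared with limma on log2(CPM + 1), with source in the model, over the 15202 genes that reached 1 CPM in at least 2 libraries. A gene was called at a Benjamini-Hochberg adjusted p below 0.05. At day 35 against day 18, 3 of the 9 members tested rose and none fell, against 4.54% of all genes higher, 2.99% lower and 7.53% called in either direction. Rdh8 was higher by 5.78 on the log2 scale (SE 0.82, limma adjusted p = 0.0033). Rdh12 was higher by 4.63 (SE 0.93, adjusted p = 0.0151) and Rdh10 by 1.24 (SE 0.31, adjusted p = 0.0304). On the photoreceptor side 2 of 3 rose, on the pigment epithelium or glial side 1 of 4 tested, and of the remaining 2 none. The median difference was 4.63 on the photoreceptor side, 0.59 on the other side and 0.05 over all genes tested.

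The members that were not called at day 35 had differences of 2.83 for Rbp3 (95% interval 0.66 to 5.01, limma adjusted p = 0.0985), 2.00 for Rlbp1 (0.46 to 3.53, adjusted p = 0.0991) and 0.68 for Rdh11 (-0.01 to 1.36, adjusted p = 0.205). They were -1.21 for Lrat (-2.85 to 0.43), -0.06 for Rdh5 (-1.16 to 1.04) and 0.25 for Retsat (-0.28 to 0.79). The Rdh8 call was kept in all 26 alternative runs that could test it, which do not include edgeR and DESeq2. Without the pair with low Nrl 1 member was called, since Rdh12 (3.83, adjusted p = 0.0749) and Rdh10 (1.35, adjusted p = 0.0925) were no longer called. The share of all genes called in such alternative runs, here and below, is not given. They show how calls moved and are no result about the members. The Rdh12 call was also lost without iPSC day 35 (adjusted p = 0.118). Rdh10 was lost without ESC day 18 replicate 1 (adjusted p = 0.0504), ESC day 18 replicate 3 (0.0543), iPSC day 18 replicate 1 (0.0599), ESC day 35 (0.128) or iPSC day 35 (0.114), with CPM rescaled to the same sum (0.0502), and with array weights (0.151). Rbp3 was called without iPSC day 18 replicate 2 (3.49, adjusted p = 0.0304) and with a block for the replicate number (3.86, adjusted p = 0.0095). Rlbp1 was at -0.17 without ESC day 35 (adjusted p = 0.838) and at 4.04 without iPSC day 35 (adjusted p = 4.86e-04).

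At day 28, Rdh8 was the only member called, at 5.65 (SE 0.82, limma adjusted p = 0.0201), where 0.507% of all genes were called higher. Rdh12 was at 4.32 (adjusted p = 0.0537), Rbp3 at 3.00 (adjusted p = 0.139) and Rlbp1 at 1.92 (adjusted p = 0.158). No member was called without ESC day 18 replicate 1 or 3, without iPSC day 18 replicate 1, without either library of day 28, or without the pair with low Nrl. A block for the replicate number called 3 members. These and the following runs are given without their share of all genes called, so they show only how calls moved. Without iPSC day 18 replicate 2, Rbp3, Rdh12 and Rdh8 were called. Rdh12 and Rdh8 were called without ESC day 18 replicate 2 or ESC day 21 replicate 3, and Rdh8 and Rlbp1 without either library of day 35.

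No member was called at day 25 or day 21, where limma called 0.0395% and 0% of all genes. At day 25 the differences were 4.32 for Rdh8 (limma adjusted p = 0.0562), 3.37 for Rdh12 (adjusted p = 0.0862) and 2.95 for Rbp3 (adjusted p = 0.101). An unadjusted p below 0.05 was reached by 4 members, Rdh8, Rdh12, Rbp3 and Rdh11, and by 24.4% of all genes. A block for the replicate number called 3 members at day 25. This run and those with libraries left out are given without their share of all genes called, so they show only how calls moved. Without iPSC day 18 replicate 2, 3 members were called at day 25 (Rbp3, Rdh12 and Rdh8), 2 without iPSC day 25 replicate 1 (Rdh12 and Rdh8), and 1, Rdh8, without ESC day 21 replicate 3 or either library of day 35. At day 21 the differences were 2.01 for Rdh8, 1.85 for Rdh12, 2.38 for Rbp3 and 0.96 for Rdh11, with adjusted p of 0.217, 0.231, 0.217 and 0.217. These 4 had an unadjusted p below 0.05, as did 18.8% of all genes. On gene sums of estimated counts, which exist for 6 members, edgeR called no member at days 21 and 25, and DESeq2 called Rdh11 at day 21 and none at day 25.

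Days 28 and 35 against days 21 and 25 leave the mixed day 18 libraries out of the means. No member was called there, against 1.47% of all genes (0.691% higher and 0.776% lower), and edgeR and DESeq2 called none of theirs. Rlbp1 was at 2.25 (SE 0.53, limma adjusted p = 0.056), Rdh8 at 2.55 (SE 0.62, adjusted p = 0.0597) and Rdh12 at 1.86 (SE 0.70, adjusted p = 0.200). These 3 members, and 16.4% of all genes, had an unadjusted p below 0.05. Rbp3 was at 0.26 (95% interval -1.37 to 1.89). With a block for the replicate number, Rdh8 (2.98, limma adjusted p = 0.0323) and Rdh12 (2.52, adjusted p = 0.0458) were called. With CPM rescaled to the same sum Rdh8 was called (adjusted p = 0.0491). Rdh8 was called without ESC day 21 replicate 3 (adjusted p = 0.0192) or iPSC day 18 replicate 2 (0.0372), and Rlbp1 without iPSC day 35 (1.48e-04) or ESC day 18 replicate 2 (0.04995).

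**Figure D5:**
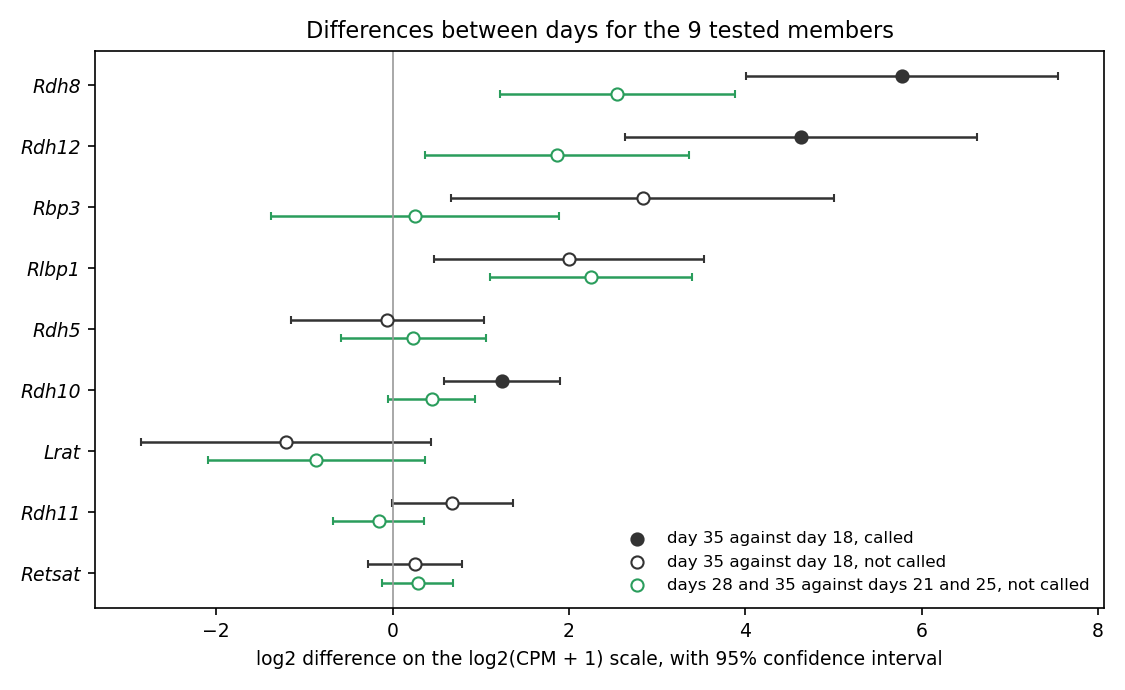
Log2 difference on the log2(CPM + 1) scale (horizontal axis) with its 95% confidence interval for the 9 tested members (vertical axis), black for day 35 against day 18 and green for days 28 and 35 against days 21 and 25; filled points were called by limma. Rdh8, Rdh12 and Rdh10 are called in the first comparison (5.78, 4.63 and 1.24) and none in the second.

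As a linear trend with day, 4 of 9 members rose, against 6.81% of all genes higher, 5.29% lower and 12.1% called in either direction. The slopes were 0.38 log2 units per day for Rdh8 (SE 0.06, limma adjusted p = 0.0011), 0.29 for Rdh12 (SE 0.05, adjusted p = 0.0043), 0.15 for Rlbp1 (SE 0.04, adjusted p = 0.0391) and 0.07 for Rdh10 (SE 0.02, adjusted p = 0.0145). Rbp3 was at 0.17 (adjusted p = 0.0908) and Lrat at -0.09 (adjusted p = 0.160). The Rbp3 slope was called with a block for the replicate number (0.24, adjusted p = 0.0224) and with array weights (0.17, adjusted p = 0.0475). The Rlbp1 slope was 0.07 without ESC day 35 (adjusted p = 0.279), and its call was also lost without ESC day 18 replicates 1 or 3, ESC day 21 replicate 1, the iPSC library of day 21 or either library of day 28, at adjusted p from 0.0526 to 0.0681. It was lost as well with a block for the replicate number (0.13, adjusted p = 0.0877), array weights (0.10, adjusted p = 0.103), no filter on low values (adjusted p = 0.0705) and CPM rescaled to the same sum (adjusted p = 0.0558). The Rdh10 call was lost without iPSC day 35 (adjusted p = 0.0519), and Rbp3 was called without ESC day 35 (0.25, adjusted p = 0.0292).

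Between the sources, with day in the model, no member was called, and limma called 0% of all genes. No member and 5.53% of all genes had an unadjusted p below 0.05, and edgeR and DESeq2 called no member. The difference, iPSC minus ESC, was 0.38 for Rdh8 (95% interval -0.73 to 1.49), 0.66 for Rdh12 (-0.59 to 1.91), 0.30 for Rbp3 (-1.06 to 1.66), -0.81 for Rlbp1 (-1.77 to 0.15), 0.38 for Rdh10 (-0.03 to 0.79) and 0.34 for Rdh11 (-0.10 to 0.77). For Rdh5 it was -0.23 (-0.92 to 0.46), for Lrat 0.06 (-0.97 to 1.09) and for Retsat -0.08 (-0.41 to 0.26). The intervals of Rdh8, Rdh12, Rbp3 and Lrat allowed a difference beyond 1 log2 unit towards iPSC, and those of Rlbp1 and Rbp3 one beyond 1 log2 unit towards ESC.

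Whether the course over days differed between the sources was tested by the difference of their slopes. No member was called, and limma called 0% of all genes. Rlbp1, at -0.25 log2 units per day (SE 0.07, adjusted p = 0.422), was the 1 member with an unadjusted p below 0.05, as were 8.11% of all genes, and neither edgeR nor DESeq2 called a member. Setting day 35 directly against day 18 within each source was added after the values were seen, because the day 35 libraries differed in Rlbp1, and it has 1 library of each source at day 35. The result is therefore a description of those libraries and no independent evidence of a difference between the sources. The log2 difference of Rlbp1 was 4.20 in ESC and -0.41 in iPSC, -4.61 apart. limma, which assumes that the lone libraries vary like the other groups, gave this an adjusted p of 0.042 and called 0.0987% of all genes. The call was lost without the pair with low Nrl (adjusted p = 0.489), without the pair with discordant Y-linked genes (0.199), and without any one of 10 of the 14 libraries that could be left out, at up to 0.236. For Rdh8 the within-source differences were 6.07 in ESC and 5.32 in iPSC, and for Rdh12 4.51 and 4.62.

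A wider list of 35 retinoid genes, among them retinol and alcohol dehydrogenases, retinoid carriers, opsins and a transporter, was read in the same way. Of these 4 were at 0 in every library (Opn1mw, Rdh7, Sdr16c5 and Adh4), and 25 were tested. At day 35 against day 18, 3 of 25 rose, where 4.54% of all genes did, and 1 fell, where 2.99% did. Among them were the short-chain dehydrogenase Dhrs7 (1.38, limma adjusted p = 0.0234), the carotenoid-cleaving oxygenase Bco2 (1.17, adjusted p = 0.0167) and the secreted retinol carrier Rbp4 (-2.96, adjusted p = 0.0479). The list's median difference was 0.41, against 0.05 over all genes tested. At days 28 and 35 against days 21 and 25, Dhrs7 rose (1.03, adjusted p = 0.0477) and Rbp4 fell (-3.20, adjusted p = 0.0271). Dhrs7 was at 19.8 to 25.9 CPM in 3 of the 4 late libraries, 11.2 CPM in iPSC day 28 and at most 12.3 CPM in the earlier ones. Bco2 was low throughout, at 0.254 to 2.43 CPM with a median of 0.867 CPM. Calls of the wider list are given for the main fit only. Rbp4 was at 0.82 to 7.08 CPM at days 28 and 35 and reached 71.6 CPM at day 21. As a trend with day, where 6.81% of all genes rose and 5.29% fell, 4 of 25 rose, among them Dhrs7, Bco2 and the retinol dehydrogenase Dhrs9 (slope 0.08, adjusted p = 0.0334), and 3 fell: Rbp4 (-0.21, adjusted p = 0.029), the cellular retinoic acid carrier Crabp2 (-0.21, adjusted p = 0.0165) and the RBP receptor Stra6 (-0.12, adjusted p = 0.0271). Crabp2 was highest in the pair with low Nrl (94.8 and 97.4 CPM), and Dhrs9 was at 7.47 CPM in ESC day 35 and at most 1.92 CPM elsewhere.

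For each tested member, the genes with the most similar pattern over the 16 libraries were found by Pearson's r of log2(CPM + 1) among 14022 genes, as a description. The libraries share day, so high values are common for genes that move with it. For Rdh8 they were Farp2 (r = 0.981), Nxnl1 (0.974) and Hs3st3b1 (0.974), and for Rdh12 Bbs9 (0.989), Ppargc1b (0.985) and Pacsin2 (0.984). For Rbp3 they were Unc119 (0.992), a carrier of lipidated photoreceptor proteins, and the rod factors Nr2e3 (0.990) and Nrl (0.987). For Rlbp1 they were Unc13c (0.951), Crym (0.939) and Amd2 (0.922). For Rdh10 they were Mcu (0.887), Gulp1 (0.853) and Chd1l (0.852), for Rdh11 Wdr48 (0.951), Sesn1 and Tmem30a (both 0.941), and for Lrat Sncg (0.936), Slc18a2 (0.932) and Foxf1 (0.931). Rdh5 had Dlx4 (0.910), Vwa3b (0.905) and Syt10 (0.881), all with a median below 0.5 CPM, and Retsat had no gene above Hsbp1 (0.756). Medians were also low for Amd2 (0.208 CPM), Foxf1 (0.497 CPM), Sncg (0.840 CPM) and Unc13c (1.17 CPM). By ranks, Spearman's rho of Amd2 with Rlbp1 was 0.573. Among the members, Rdh8 and Rdh12 were the most alike (r = 0.971), ahead of Rdh12 and Rbp3 (0.885) and of Rdh8 and Rbp3 (0.814), whereas Rlbp1 and Rbp3 had an r of 0.04.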

How the data were processed

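Genes were measured by RNA sequencing of sorted cells in 16 libraries. Per the submitters' processing notes, reads were processed with Trimmomatic 0.36, kallisto 0.42.5 and edgeR against GRCm38.p4. The gene table deposited by the authors holds a score for each gene and library, which was converted to CPM as 2 to the power of the square root of the score plus 1, less 1. Checked on 8688 genes with transcripts, 97.7% had a constant ratio of this CPM to the summed TPM, after division by 1 factor per library, within 0.001 on the log2 scale. The authors also deposited estimated counts and TPM for 65535 transcripts, which held all transcripts of 6 tested members and none of Rdh8, Rbp3 and Rlbp1. Transcript names and gene positions come from GENCODE M21 (GRCm38), in which 99.3% of the transcripts were found.

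Members and lists were chosen with earlier results of these data known. limma 3.58.1 in R 4.3.3, with a variance trend, was run on log2(CPM + 1), a scale that understates the change of low genes, over 15202 genes at 1 CPM or more in at least 2 libraries, with source and day in the model and Benjamini-Hochberg adjustment over all of them. The fit was tested on simulated data. Alternatives were the pseudocount, the filter, the scaling, a replicate block, array weights, each library left out, the pairs of libraries named in the text, no source term, and edgeR 4.0.16 and DESeq2 1.42.0 on rounded gene sums of estimated counts (9316 genes). Named were all 10 members, the members of the wider list that passed a test, and the 3 genes most alike in pattern to each member, without predicted gene models. 1 gene of the wider list is not reported here by name. Intervals and limits from counts cover counting error only.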

Additional observations from a re-analysis of the deposited data

Results flagged for a closer look

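In groups of 4 or more libraries, 4 member levels stood far from the rest of their day by the ratio of the gap to the whole range on the log2(CPM + 1) scale. Among 18 groups examined, chance flags about 1 in 20. Rdh8 at day 18 was highest in iPSC day 18 replicate 2, with a ratio of 0.914 (4.79 CPM against 0 to 0.162 CPM). Rdh5 at day 18 was highest in ESC day 18 replicate 2, with a ratio of 0.723 (22.4 CPM against 4.71 to 7.44 CPM). Rdh12 at day 21 was highest in ESC day 21 replicate 3, with a ratio of 0.867 (76.4 CPM against 10.3 to 13.6 CPM), and Nrl was also highest of its day there, at 1915 CPM. Rlbp1 at day 21 was highest in ESC day 21 replicate 1, with a ratio of 0.854 (5.48 CPM against 2.79 to 3.10 CPM).

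Rlbp1 stood out because day 35 lay above day 18 in ESC and below it in iPSC. The log2 difference was 4.20 in ESC, and that of iPSC minus that of ESC was -4.61, with 1 library of each source at day 35. The limma test of it (adjusted p = 0.042) was chosen because of these values and is no independent evidence. Its call was lost without either pair of day 18 libraries (adjusted p = 0.489 and 0.199) and in 10 of 14 fits with 1 library left out.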

How the results depend on the processing

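Of 1014 member values under the alternatives, 935 kept their direction and their side of the threshold, 29 changed sign, 37 lost a call and 13 gained one. No member that was called changed direction. Same-numbered libraries deviated together (r above 0.1) in 10 of 13 pairs, against 5 of 24 pairs with different numbers. These counts are not separate evidence. The 2 iPSC libraries of day 18, and those of day 25, mirror each other around their mean, so values recur with opposite sign. The lowest r was 2.4e-05 among the same-numbered pairs, so none of them was negative, and -0.659 among the others. The labels name no shared source. Whether the numbers pair the libraries was thus not settled, and the replicate block is given as an alternative that changes several calls. Among the ESC day 21 libraries, ESC day 18 replicate 2 correlated best with replicate 3 (r = 0.123), ahead of replicate 2 (0.0592). Its highest r, however, were with libraries of its own number, iPSC day 25 replicate 2 (0.225) and iPSC day 18 replicate 2 (0.222). Member counts under the alternatives are given without the share of all genes called in the same run. They show how the calls moved and are no result about the members. A replicate block called 3 members at day 25, 3 at day 28 and 2 at days 28 and 35 against days 21 and 25. The replicate block also called Rbp3 at day 35 (3.86, limma adjusted p = 0.0095). Array weights called 4 at day 21, 6 at day 25 and 6 at day 28. Rescaled CPM called 1 at day 25, 2 at day 28 and 1 at days 28 and 35 against days 21 and 25, and moved the median of all genes at day 35 from 0.05 to -0.09. The filter of 5 CPM called 2 at day 28, and no source term 2 at day 25 and 2 at day 28. Without the pair with low Nrl 0 were called at day 28 and 1 at day 35, and without the pair with discordant Y-linked genes 2 at day 25 and 2 at day 28. On gene sums, edgeR with either scaling called 0 at day 28 and 2 in the trend, and DESeq2 1 at day 21, 0 at day 28, 1 at day 35 and 1 in the trend. These sums hold 6 members and not Rdh8, and DESeq2 gave no adjusted p for Rdh12. Leaving out 1 library gave 0 to 3 calls at day 25, 0 to 3 at day 28, 2 to 4 at day 35, 0 to 1 at days 28 and 35 against days 21 and 25, and 3 to 4 in the trend. The source difference in the day 35 effect of Rlbp1 gave 0 calls with a pseudocount of 0.1, a filter of 5 CPM, rescaled CPM and without either pair, and 0 to 1 with 1 library left out. With a replicate block that difference was -4.51 (adjusted p = 0.0497).

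Values that changed sign were not called in either setting. Rdh5 at day 35 was 0.083 with the replicate block, 0.42 with array weights and -0.68 to 0.53 with 1 library left out. Its slope was 0.0040 with the block and -0.036 to 0.014 with 1 library left out. With the discordant Y-linked pair left out, the source difference was -0.044 for Rdh8 and -0.34 for Rbp3. That of Lrat was -0.041 with the block, -0.00796 without the pair with low Nrl, -0.26 and -0.27 with edgeR and -0.40 with DESeq2, and that of Retsat was 0.21 with array weights. With 1 library left out, source differences ran from -0.037 to 0.59 for Rdh8, -0.20 to 0.80 for Rbp3, -0.19 to 0.29 for Lrat and -0.12 to 0.011 for Retsat. For days 28 and 35 against days 21 and 25 they ran from -0.14 to 0.68 for Rbp3, -0.072 to 0.53 for Rdh5 and -0.36 to 0.054 for Rdh11, and Rlbp1 at day 35 ran from -0.17 to 4.04. The cause was not tested. Days 28 and 35 rest on 2 libraries each, and in those of day 28 1 count is worth 0.157 and 0.213 CPM.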
